A study of Mus musculus with 9 samples.

Results

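The 10 genes described here encode TNF ligands and receptors. They were chosen by symbol, and all 10 were found among the 25494 genes of the library table and among the genes listed in each of the 3 comparisons. The 2 ligand genes were Tnf and Tnfsf9. The 8 receptor genes were Tnfrsf1a, Tnfrsf1b, Tnfrsf10b, Tnfrsf21, Fas, Ltbr, Cd40 and Tnfrsf12a. No measured value entered the choice, although earlier results of these data were known when it was made.

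RNA depleted of ribosomal RNA was sequenced from mouse bone marrow-derived macrophages (BMDMs) that lack endogenous TTP (tristetraprolin, gene Zfp36), an RNA-binding protein that binds AU-rich elements in the 3'UTR of mRNAs and shortens the life of many of them. The cells had been immortalized with the oncogenes hcmyc and hRas, were positive for CD11b and for the macrophage surface protein encoded by Adgre1, and carried a retroviral tet-inducible construct. It encoded GFP alone, GFP fused to wild-type TTP (TTP) or the same fusion in mutant form (TTP-AA). In TTP-AA the serines phosphorylated by the kinase MK2 were mutated (S52A and S178A). All groups received doxycycline for 6 h and LPS, a bacterial cell wall component that activates macrophages, for 1 h, both used at 1 µg/ml. There were 9 libraries, 3 per group. Each group was a transduced line sorted for GFP, so a difference between groups is also a difference between lines. Nothing in the labels said whether the 3 libraries of a line came from separate cultures, so p-values measure only the spread between these libraries.

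TNF is made by activated macrophages as a membrane protein, is cut loose by the protease ADAM17 and binds as a trimer to its receptors TNFR1 (Tnfrsf1a) and TNFR2 (Tnfrsf1b). TNFR1 carries a cytoplasmic death domain and, through TRADD, RIPK1 and TRAF proteins, switches on NF-κB and MAP kinases or, when that branch is held back, caspase-8 or RIPK3. Fas, Tnfrsf10b (the mouse TRAIL receptor) and Tnfrsf21 (death receptor DR6) also carry death domains, whereas Tnfrsf1b, Cd40, Ltbr and Tnfrsf12a (the TWEAK receptor, Fn14) recruit TRAF proteins directly. Tnf mRNA is the classical target of TTP. Mice without TTP develop arthritis and wasting that depend on TNF.

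The Tnf mRNA is known for its AU-rich element, so the 3'UTRs of the 10 genes were searched for TATTTAT, the 7-base core bound by TTP, on the strand of the mRNA and counting overlapping copies. The sequences below were read from the GENCODE vM21 transcripts of the GRCm38 mouse genome, and capitals mark TATTTAT. They show the densest stretch in Tnf beside the sites of Tnfsf9, the site of Tnfrsf10b that lies in the longer form TTATTTATT, and the sites of the TRAF-binding receptors that passed a test. Tnf had 8 copies in a 3'UTR of 764 bases, Tnfrsf10b had 3 copies, Tnfsf9 had 2 copies, and Ltbr, Cd40 and Tnfrsf12a had 1 copy each.
Tnf, chr17:35199674-35199703, minus strand: ttatTATTTATTTATTATTTATTTATttgc
Tnfsf9, chr17:57107609-57107627, plus strand: acttggTATTTATtctgag
Tnfsf9, chr17:57107717-57107735, plus strand: agtttaTATTTATattaat
Tnfrsf10b, chr14:69783503-69783521, plus strand: ttttatTATTTATtttctt
Cd40, chr2:165071260-165071278, plus strand: tgtaatTATTTATacaatg
Tnfrsf12a, chr17:23675498-23675516, minus strand: gggtgaTATTTATtgtggg
The Tnf stretch holds 4 of its 8 copies, as 2 abutting pairs of overlapping copies, and each of the other stretches holds 1 copy. No copy was found in the 3'UTRs of Tnfrsf1a, Tnfrsf1b, Tnfrsf21 and Fas, which says only that these letters are not in those 3'UTRs. Of 11489 listed genes with an annotated 3'UTR, 28.3% held the motif and 11 genes held 8 or more copies. The longer form was found 5 times in Tnf, once in Tnfrsf10b and in none of the other members, and 7.42% of genes had it.

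Values per library were fitted means of the DESeq2 model behind the deposited tables, so they show the level of a group and the shared pattern over replicate numbers, but no scatter between replicates. Within a replicate number the ratio between groups, and so their order, is therefore the same for numbers 1, 2 and 3. The error of a difference is the standard error of its log2 fold change (± below). Ranges over the 3 libraries of a group show the replicate-number term and not that error. The sums of fitted means, which stand in for depth, ran from 21482954 (TTP replicate 1) to 102613526 (TTP-AA replicate 3). All 8 macrophage markers were present. Their summed normalized counts were 573440 to 792628 in GFP, 479542 to 660646 in TTP and 655988 to 904222 in TTP-AA. Most of these sums came from Lyz2, with a mean of 583533 over all libraries, whereas Mertk had a mean of 18.8. In TTP vs GFP 7 of the 8 markers were listed, with 0 higher, 2 lower (Adgre1 and Fcgr1) and a median of -0.06. In TTP-AA against GFP 1 of 8 was higher (Adgre1), with a median of 0.19. In TTP-AA against TTP 3 of 8 were higher (Adgre1, Lyz2 and Fcgr1), with a median of 0.26. These calls stand beside 9.16%, 17.9% and 28.6% of all listed genes called in the 3 comparisons. Adgre1 changed by -0.75 ± 0.14 in TTP and 0.68 ± 0.14 in TTP-AA against GFP on the log2 scale, and by 1.43 ± 0.14 between the TTP forms (TTP-AA vs TTP). All 6 fibroblast and all 4 lymphocyte markers in the table had means under 10, with summed counts of 6.83 to 9.21 and of 6.61 to 8.43. The 3 granulocyte and mast cell markers summed to 112 to 181 in GFP, 114 to 184 in TTP and 190 to 306 in TTP-AA, almost wholly from S100a8, and Mpo and Elane were under 10. Dendritic cell markers summed to 285 to 341 in GFP, 275 to 329 in TTP and 227 to 277 in TTP-AA. Endothelial and epithelial markers summed to 28.6 to 35.8, 27.0 to 33.8 and 41.6 to 53.5. For TTP-AA vs TTP the only listed granulocyte and mast cell marker, S100a8, was called at 0.74 ± 0.21. So were 1 of 3 listed dendritic cell markers (Zbtb46, -1.06 ± 0.23) and 1 of 2 listed endothelial and epithelial markers (Kdr, 0.92 ± 0.23). Zbtb46 and Kdr had means of 34.2 and 22.6. The part of these marker differences in the results below was not tested, and in bulk RNA fewer cells of a type and less RNA per cell cannot be told apart. Zfp36 itself had fitted counts of 1739, 1413 and 883 in GFP, 1789, 1453 and 909 in TTP, and 2814, 2286 and 1429 in TTP-AA. The GFP line, without a TTP construct, thus had Zfp36 counts close to those of the TTP line, so these counts do not separate transgene from endogenous RNA and do not check the GFP and TTP labels. Zfp36 differed by 0.04 ± 0.17 between TTP and GFP (DESeq2 adjusted p 0.930) and by 0.65 ± 0.17 between TTP-AA and TTP (adjusted p 0.000902), and an antisense gene overlaps its exons.

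Of the 8 receptor genes, 5 passed the test for TTP-AA vs TTP, where 28.6% of all listed genes passed. No other member passed against GFP, and neither ligand gene passed in any comparison. With so few ligand genes, their lack of calls was not unusual at that share. Whether receptor and ligand genes differed in their share of calls was not tested. Against GFP, Tnfrsf1a and Tnfrsf21 were lower in TTP, and Tnfrsf1a, Tnfrsf21 and Cd40 were higher in TTP-AA. Between the TTP forms, Tnfrsf1a, Tnfrsf1b, Tnfrsf21 and Cd40 were higher in TTP-AA and Tnfrsf12a was lower. Tnfrsf21 had the largest change of the members in the comparison of TTP with GFP and in that of the TTP forms.

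**Figure D1:**
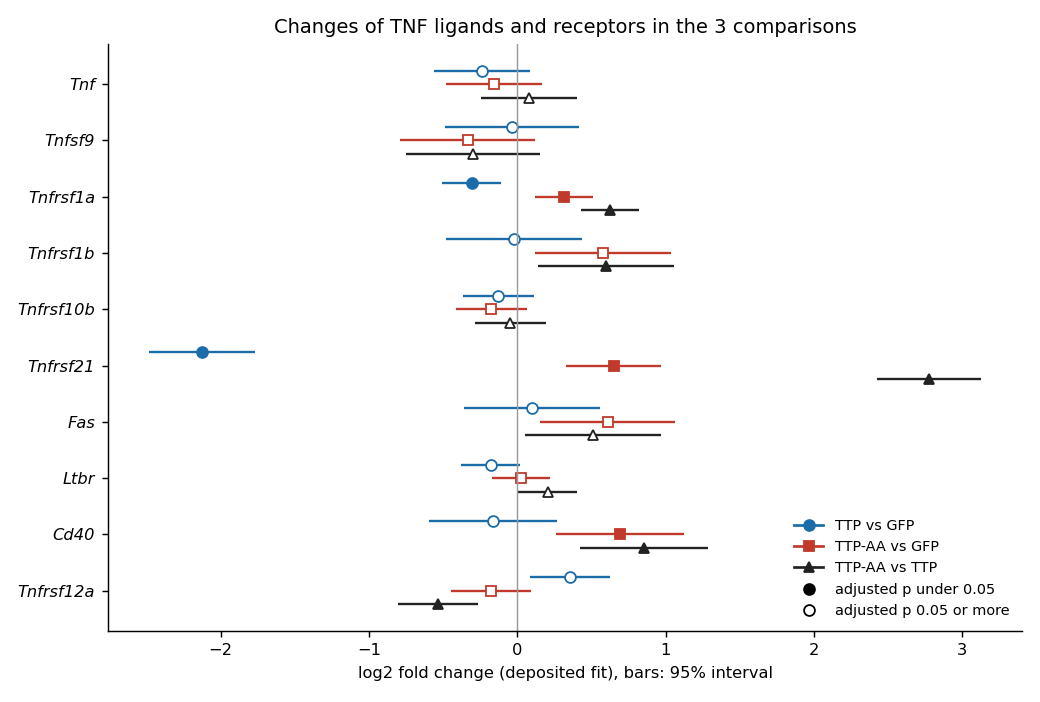
Log2 fold changes of the 10 genes on the x axis, with bars for the 95% interval from the standard error. Circles are TTP vs GFP, squares TTP-AA vs GFP and triangles TTP-AA vs TTP, filled where the DESeq2 adjusted p was under 0.05. Tnfrsf21 lies at -2.13 (circle) and 2.77 (triangle), and the other members lie between -0.53 and 0.86.

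For TTP vs GFP, 2 of the 10 members had a DESeq2 adjusted p under 0.05, both lower, where 9.16% of 11977 listed genes did (4.08% higher and 5.08% lower). For TTP-AA vs GFP, 3 members passed, all higher, where 17.9% of 13205 genes did (9.11% higher and 8.77% lower). For TTP-AA vs TTP, 5 members passed, 4 higher and 1 lower, where 28.6% did (14.0% higher and 14.6% lower). The median log2 fold change of the members was -0.15, 0.17 and 0.36 in the 3 comparisons, beside 0.01, 0.00 and -0.01 over all listed genes. The comparisons share libraries, so these values are not independent of each other. In a Wald test of any difference among the 3 groups, 5 members had an adjusted p under 0.05, where 33.1% of 11977 genes did. The scores of all genes were wider than the unit spread of a chance score, with a central spread of 1.51, 1.77 and 2.17 in the 3 comparisons. After division by it Tnfrsf21 alone kept a call, in TTP vs GFP and TTP-AA vs TTP, and 0 members passed for TTP-AA vs GFP, where 1 member had an unadjusted p under 0.05. The division treats most genes as unchanged between the lines, which was not tested. Real differences in many genes would widen the scores too, so a call lost by it is not thereby shown to be false.

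Per kb of exon length, the ligands were the most abundant members. Tnf (ENSMUSG00000024401, chromosome 17, 35199381 to 35202007, minus strand) had fitted normalized counts of 36819, 43478 and 37703 in GFP replicates 1 to 3. In TTP they were 31256, 36908 and 32006, and in TTP-AA they were 33036, 39010 and 33829. The fitted level was highest in GFP, and the ranges of the 3 groups over the replicate numbers overlapped. The difference for TTP vs GFP was -0.24 ± 0.17 (95% interval -0.56 to 0.09; DESeq2 adjusted p 0.438). TTP-AA differed from GFP by -0.16 ± 0.17 (-0.48 to 0.17; DESeq2 adjusted p 0.586) and from TTP by 0.08 ± 0.17 (-0.25 to 0.40; adjusted p 0.771). The interval for TTP vs GFP therefore includes a Tnf level of 0.678 times that in GFP as well as no change, and this standard error was larger than that of 92.8% of genes with a like mean count.

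Tnfsf9 (ENSMUSG00000035678, chromosome 17, 57105325 to 57107757, plus strand) encodes the ligand of 4-1BB, a receptor of the TNF family found on T cells. Its fitted counts were 7953, 11009 and 8947 in GFP, 7760, 10742 and 8730 in TTP, and 6309, 8734 and 7098 in TTP-AA. The ranges of the groups overlapped, and the fitted level was lowest in TTP-AA. Against GFP the log2 fold changes were -0.04 ± 0.23 in TTP and -0.33 ± 0.23 in TTP-AA, and TTP-AA differed from TTP by -0.30 ± 0.23 (DESeq2 adjusted p 0.958, 0.353 and 0.359). For TTP-AA vs GFP the 95% interval ran from -0.79 to 0.12, and it may be centred too near 0 for the reason given with the processing. The exons overlap Gm11110 on the other strand. Neither ligand had an unadjusted p under 0.05 in any comparison.

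**Figure D2:**
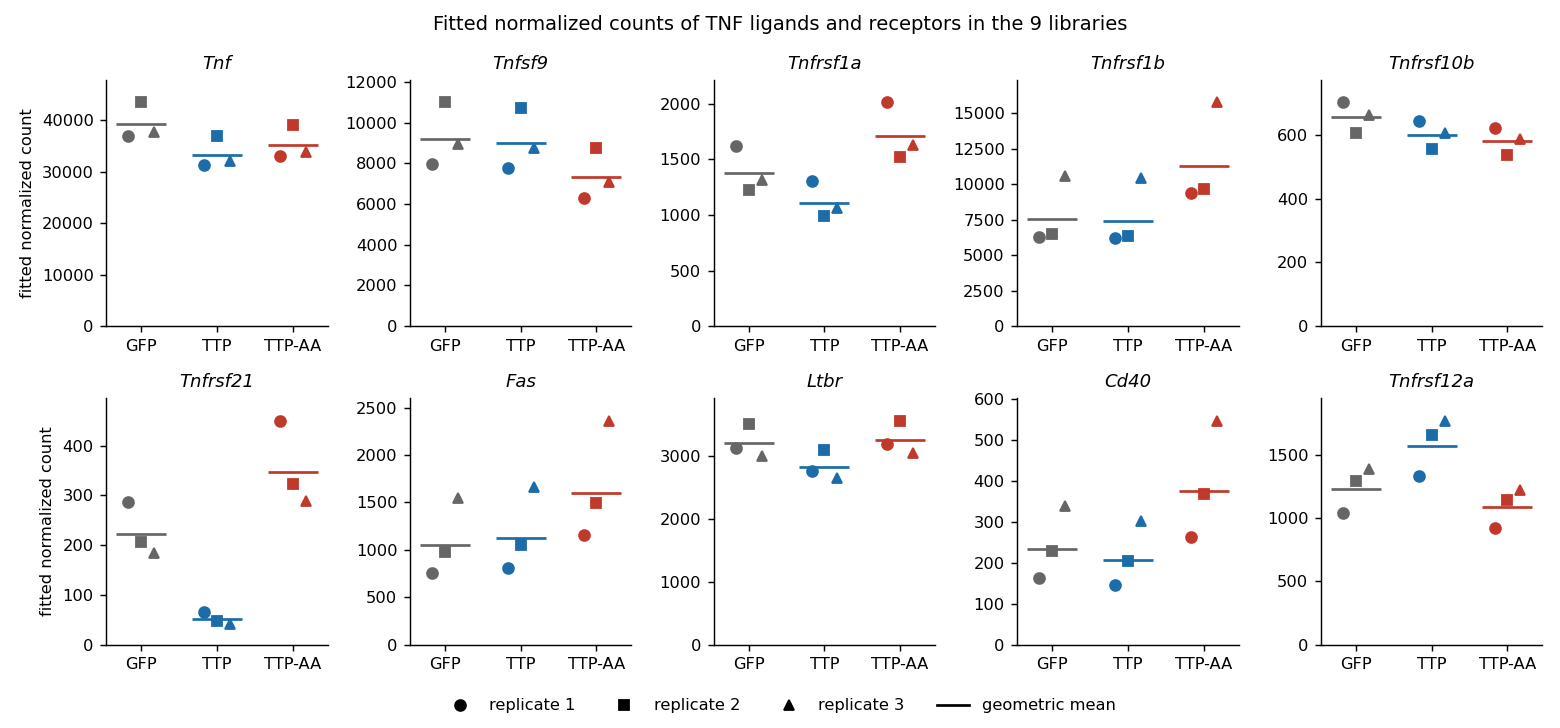
Fitted normalized counts of each gene (y axis, linear from 0, its own scale per gene) in the 9 libraries by group, with marker shapes for replicates 1 to 3 and a line for the geometric mean of the group. Tnfrsf21 lies between 184 and 287 in GFP and between 42.1 and 65.8 in TTP, the pattern over replicate numbers is the same in each group because the values are fitted, and Tnfrsf1b, Fas and Cd40 are highest in replicate 3.

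Among the TNF receptors proper, Tnfrsf1a (ENSMUSG00000030341, chromosome 6, 125349362 to 125362484, plus strand), which encodes the widely expressed TNFR1, had fitted counts of 1620, 1224 and 1312 in GFP. They were 1308, 988 and 1059 in TTP and 2017, 1523 and 1633 in TTP-AA. The fitted level was lowest in TTP and highest in TTP-AA, while the ranges of neighbouring groups overlapped. Tnfrsf1a fell by 0.31 ± 0.10 for TTP vs GFP, a fold of 0.808 (DESeq2 adjusted p 0.0317). It was 0.32 ± 0.10 higher in TTP-AA than in GFP, a fold of 1.24 (adjusted p 0.0137). The difference between the TTP forms was 0.62 ± 0.10, a fold of 1.54 (adjusted p 2.1e-08). Its chromosome had a median change of -0.06 for TTP vs GFP, and with each chromosome centred on its median the TTP vs GFP call was lost (adjusted p 0.148). With the scores divided by their central spread the 3 adjusted p-values were 0.587, 0.636 and 0.146.

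Tnfrsf1b (ENSMUSG00000028599, chromosome 4, 145213463 to 145246870, minus strand) encodes TNFR2, which has no death domain and is abundant on myeloid cells. Its fitted counts were 6283, 6483 and 10585 in GFP, 6187, 6384 and 10423 in TTP, and 9374, 9673 and 15792 in TTP-AA. GFP and TTP were nearly level, and the TTP-AA range overlapped both. Against GFP the change was -0.02 ± 0.23 in TTP (DESeq2 adjusted p 0.976) and 0.58 ± 0.23 in TTP-AA (adjusted p 0.0685). It passed between the TTP forms, at 0.60 ± 0.23 (DESeq2 adjusted p 0.0393). The standard error exceeded that of 99.9% of genes with a like mean, and the call was lost at a threshold of 0.01 and with scores divided by their central spread (adjusted p 0.888).

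Of the receptors with a death domain other than TNFR1, Tnfrsf21 changed and Fas and Tnfrsf10b did not pass the test. Tnfrsf21 (ENSMUSG00000023915, chromosome 17, 43016555 to 43089189, plus strand) had fitted counts of 287, 206 and 184 in GFP, 65.8, 47.2 and 42.1 in TTP, and 450.1, 323 and 288 in TTP-AA. The TTP range over the replicate numbers lay apart from both others, and the highest GFP value lay just under the lowest TTP-AA value. It fell by 2.13 ± 0.18 for TTP vs GFP, 4.36-fold lower (DESeq2 adjusted p 5.3e-29), and this was the change of rank 18 by size among the 11977 genes. In TTP-AA it was 0.65 ± 0.16 higher than in GFP, 1.57-fold (adjusted p 0.00104), and 2.77 ± 0.18 higher than in TTP, 6.84-fold (adjusted p 3.6e-51), of rank 23 among 13205 genes. The first and the last of these calls were kept under all 7 alternatives tried, and the rise over GFP in TTP-AA lost its call once scores were divided by the central spread (adjusted p 0.391). None of its 2 ATTTA pentamers in the 3'UTR was part of a TATTTAT.

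Fas (ENSMUSG00000024778, chromosome 19, 34290666 to 34327772, plus strand), the receptor of Fas ligand, had fitted counts of 758, 982 and 1551 in GFP, 811, 1051 and 1660 in TTP, and 1156, 1497 and 2364 in TTP-AA. The 3 ranges overlapped. Against GFP the changes were 0.10 ± 0.23 in TTP and 0.61 ± 0.23 in TTP-AA, and the TTP forms differed by 0.51 ± 0.23 (DESeq2 adjusted p 0.869, 0.0507 and 0.0863). The second passed at an adjusted p of 0.0473 when only genes with a mean of at least 50 were adjusted together. Genes of chromosome 19 had a median of 0.20 in the comparison of TTP with GFP and of -0.11 in that of the TTP forms. Centring on them turned the first change to -0.11 and gave 0.62 with an adjusted p of 0.0336 for TTP-AA vs TTP.

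Tnfrsf10b (ENSMUSG00000022074, chromosome 14, 69767472 to 69784411, plus strand) had fitted counts of 606 to 703 in GFP, 554 to 643 in TTP and 536 to 622 in TTP-AA, with overlapping ranges. Its changes of -0.13 ± 0.12, -0.17 ± 0.12 and -0.05 ± 0.12 did not pass (DESeq2 adjusted p 0.609, 0.355 and 0.823), and the last interval ran from -0.29 to 0.19.

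Of the receptors that bind TRAF proteins, Cd40 and Tnfrsf1b were higher and Tnfrsf12a was lower in TTP-AA against TTP, and Ltbr passed in no comparison. Cd40 (ENSMUSG00000017652, chromosome 2, 165055627 to 165072948, plus strand), through which T cells activate macrophages, had fitted counts of 162, 227 and 338 in GFP, 145, 203 and 302 in TTP, and 262, 367 and 546 in TTP-AA. The ranges overlapped, and the fitted level was highest in TTP-AA. In TTP-AA Cd40 rose by 0.69 ± 0.22 over GFP, 1.62-fold (DESeq2 adjusted p 0.0140), and by 0.86 ± 0.22 over TTP, 1.81-fold (adjusted p 0.000842). For TTP vs GFP it was -0.16 ± 0.22 (adjusted p 0.737). Both calls were lost on division of the scores by the central spread (adjusted p 0.636 and 0.625).

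Tnfrsf12a (ENSMUSG00000023905, chromosome 17, 23675445 to 23677468, minus strand) was the member lower in TTP-AA. Its fitted counts were 1041, 1295 and 1386 in GFP, 1331, 1655 and 1772 in TTP, and 919, 1143 and 1224 in TTP-AA. The fitted level was highest in TTP, and the TTP and TTP-AA ranges over the replicate numbers did not overlap. Tnfrsf12a fell by 0.53 ± 0.14 for TTP-AA vs TTP, 1.45-fold lower (DESeq2 adjusted p 0.000930). Against GFP it was at 0.35 ± 0.14 in TTP (adjusted p 0.0871) and at -0.18 ± 0.14 in TTP-AA (adjusted p 0.416). With scores divided by their central spread the adjusted p for TTP-AA vs TTP was 0.629.

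Ltbr (ENSMUSG00000030339, chromosome 6, 125306571 to 125313885, minus strand), the receptor of lymphotoxin, lies 35476 bases from Tnfrsf1a. It had fitted counts of 2995 to 3496 in GFP, 2643 to 3085 in TTP and 3045 to 3554 in TTP-AA, and the ranges overlapped. Its changes were -0.18 ± 0.10, 0.02 ± 0.10 and 0.20 ± 0.10 (DESeq2 adjusted p 0.287, 0.908 and 0.115). The standard errors of the neighbours were alike, and the changes of Tnfrsf1a were larger in each comparison, though that difference was not tested.

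Levels between genes were compared per kb of exon length. In GFP the order of fitted normalized counts per kb was Tnf (23933), Tnfsf9 (7146), Tnfrsf1b (1979), Ltbr (1358), Tnfrsf12a (637), Tnfrsf1a (531), Fas (509), Tnfrsf10b (120.2), Cd40 (68.1) and Tnfrsf21 (53.9). The ranges over the 3 GFP libraries overlapped between Tnfrsf12a and Tnfrsf1a, between Tnfrsf1a and Fas, and between Cd40 and Tnfrsf21. Because these ranges show only the fitted replicate-number term, they do not decide the order of neighbours, which was not tested. Tnf stood above 99.6% and Tnfrsf21 above 26.4% of 13133 genes by this measure. In TTP, Tnfrsf21 was at 12.3 per kb and its range lay under that of Cd40. In TTP-AA, Fas (776) stood next after Ltbr, with a range overlapping that of Tnfrsf1a (661), and Tnfrsf21 rose to 84.5 per kb, with a range overlapping that of Tnfrsf10b. The exon length counts every annotated exon, so a gene expressed as a short isoform is underestimated.

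**Figure D3:**
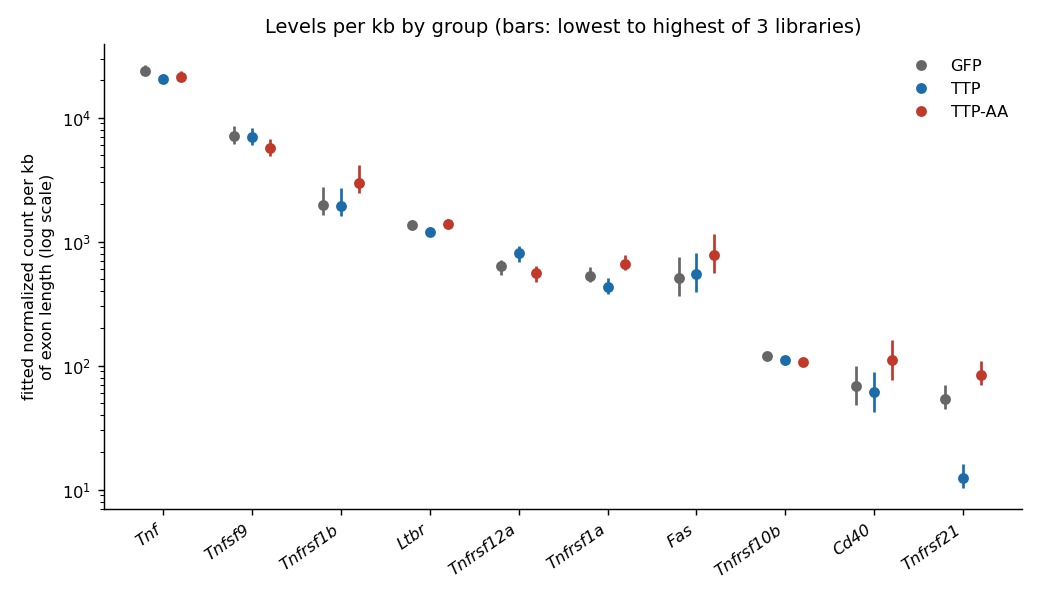
Fitted normalized counts per kb of exon length (y axis, log scale) for the 10 genes ordered by their GFP level, with a point for the geometric mean of each group and a bar from the lowest to the highest of its 3 libraries. Tnf leads at 23933 per kb in GFP and Tnfrsf21 in TTP is lowest at 12.3 per kb.

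The members also differed between replicate numbers, which in the model correspond to library dates. Cd40 ranged over the numbers by 2.08-fold, Fas by 2.05-fold and Tnfrsf1b by 1.68-fold, all with the highest level in number 3. These ranges exceeded those of 96.6%, 96.3% and 90.4% of 13205 genes. Tnfrsf21 and Tnfrsf1a were highest in number 1, with ranges of 1.56-fold and 1.32-fold, and Tnf and Ltbr varied by 1.18-fold and 1.17-fold. For Fas and Cd40 the standard error was larger than that of 99.6% and 98.3% of genes with a like mean. For Tnfrsf1b, Fas and Tnfsf9 it stood at 99.98%, 99.5% and 98.8% of the highest in the TTP vs GFP table, 0.235, and their changes may be understated for the reason given with the processing.

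The presence of TATTTAT in the 3'UTR was set beside the changes. Of the 6 members with the motif, Cd40 was higher and Tnfrsf12a lower for TTP-AA vs TTP, and Tnf, with the most copies, was at 0.08 ± 0.17. The other 4 members, without it, included Tnfrsf1a, Tnfrsf1b and Tnfrsf21, all higher. Over all genes with an annotated 3'UTR in that comparison, 12.8% of those with the motif were called higher and 18.8% lower, against 15.4% and 14.8% of those without it. For TTP-AA vs GFP the shares called lower were 16.2% with the motif and 6.98% without it, and for TTP vs GFP they were 6.61% and 4.81%. The shares were not adjusted for 3'UTR length. No member with the motif was called lower for TTP-AA vs GFP, while Cd40 was called higher. With 6 such members, a lack of lower calls was not unusual at these shares.

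Other genes of the pathway were counted from lists by role. The counts are for TTP-AA vs TTP unless stated, where 28.6% of all listed genes were called (14.0% higher and 14.6% lower). Of 16 other ligand genes 8 were listed for TTP-AA vs TTP, and 2 were higher and 0 lower. Tnfsf4, which encodes the ligand of OX40, rose by 1.62 ± 0.16 (DESeq2 adjusted p 1.2e-20). Against GFP it was at -0.88 ± 0.17 in TTP and at 0.74 ± 0.16 in TTP-AA, both called. The other was Tnfsf15, named after its value was seen, with a mean count of 12.0 and a change of 0.69 ± 0.21. Of 20 other receptor genes 10 were listed, and 5 were higher and 1 lower. Tnfrsf13b, which encodes the receptor TACI for BAFF and APRIL, rose by 2.15 ± 0.14 (adjusted p 3.6e-53), and was at -1.89 ± 0.14 in TTP and at 0.26 ± 0.13 in TTP-AA against GFP (adjusted p 4.0e-40 and 0.153). Tnfrsf23, a decoy TRAIL receptor with close paralogs and an exon overlap with E230032D23Rik, rose by 0.89 ± 0.18, and Tnfrsf8 (CD30) by 0.69 ± 0.21. Relt changed by -0.70 ± 0.15. The medians of the listed genes were 0.20 for the other ligands and 0.44 for the other receptors, beside 0.56 for the 8 receptors among the members and -0.01 over all genes.

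Inside the cell, 4 of 15 adaptors and ubiquitin ligases rose and 1 fell from TTP to TTP-AA, and the median was 0.11. These 5 calls stand beside 28.6% of all genes called. Traf1 rose by 0.68 ± 0.23, Birc3, which encodes the ubiquitin ligase cIAP2, by 0.65 ± 0.23, and Traf2, which binds TNFR2 and TRADD, by 0.42 ± 0.12. Traf4 changed by -0.87 ± 0.13 (DESeq2 adjusted p 1.3e-09), after 0.65 ± 0.13 for TTP vs GFP. Of 13 kinases of the receptor complex and their partners 4 were higher and 1 lower, with a median of 0.19, beside the same 28.6%. Ikbke rose by 0.51 ± 0.15, Tank by 0.46 ± 0.14, Tab2 by 0.33 ± 0.12 and Tbk1 by 0.32 ± 0.10. The gene called lower was Map3k14, named after its value was seen, at -0.32 ± 0.12. Exons of Map3k14 overlap another annotated gene on the same strand. Exons of Ikbke overlap other annotated genes, and the Tab2 and Tbk1 calls were lost with chromosomes centred (adjusted p 0.267 and 0.213). None of the 7 deubiquitinases and their partners passed the DESeq2 test in this comparison, with 1 at an unadjusted p under 0.05.

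In the death branch 2 of 7 genes were higher and 0 lower, with a median of 0.02, which is no more than the 28.6% called over all genes. Ripk3, the kinase of necroptosis, changed against GFP by -1.64 ± 0.18 in TTP and by 0.79 ± 0.17 in TTP-AA, and by 2.43 ± 0.18 between the TTP forms (DESeq2 adjusted p 5.7e-18, 5.6e-05 and 4.0e-41). Casp8, the initiator caspase below the death receptors, rose by 0.26 ± 0.09 for TTP-AA vs TTP. Among 8 genes for shedding and processing, of which 6 were listed, 2 were higher and 0 lower, against 14.0% of all genes called higher. Adam17, the protease that releases TNF and its receptors, rose by 0.46 ± 0.12 and Furin by 0.35 ± 0.13, and exons of both overlap genes on the other strand. With scores divided by their central spread, Tnfsf4, Tnfrsf13b and Ripk3 kept their calls among the 17 genes named from these lists.

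**Figure D4:**
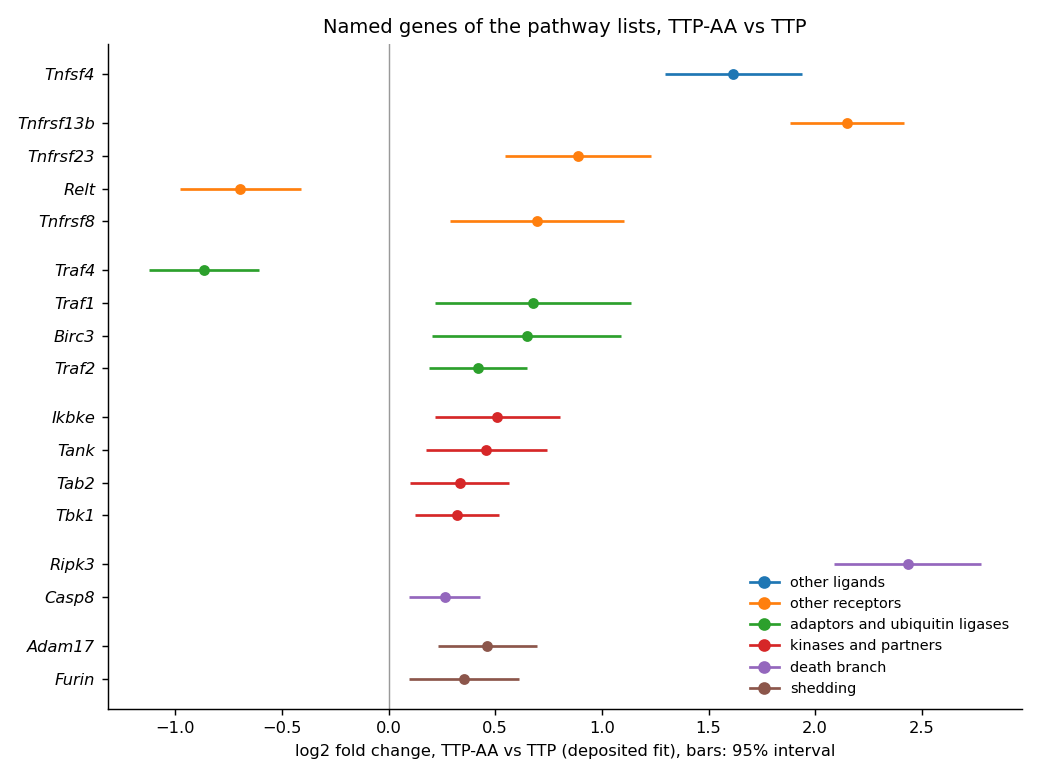
Log2 fold changes for TTP-AA vs TTP (x axis) of the 17 genes named from the pathway lists, with bars for the 95% interval and colours for the lists. Ripk3 (2.43), Tnfrsf13b (2.15) and Tnfsf4 (1.62) lie to the right of all others, and Traf4 (-0.87) and Relt (-0.70) lie below 0.

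The genes whose fitted values were most like those of a member over the 9 libraries were taken by Pearson r of log2 values among 11143 genes with a mean of at least 50. For Tnf they were Ddit3, Zfp119b and Dennd1c, with r of 0.996 for each, and 128 genes had r over 0.9. For Tnfsf9 they were Hagh, Rnf215 and Rpl31, with r from 0.996 to 0.998, and 357 genes had r over 0.9. For Tnfrsf1a they were Papd4, Ttll5 and Atp10a, with r from 0.993 to 0.995, and 280 genes had r over 0.9. The 9 values of a gene follow from 4 fitted terms besides its mean and share the replicate-number pattern, so high r values are common, and they are descriptions only. Reads of Rpl31 can be shared with pseudogenes.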

How the data were processed

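RNA-seq of 9 libraries (GFP, TTP and TTP-AA, 3 each) was analysed from the deposited processed tables. Sample titles gave the groups and the replicate numbers. Per the methods and the submitters' processing notes, the authors trimmed reads with Trim Galore and aligned them to GRCm38 with TopHat. The notes gave TopHat version 2.0.12, whereas the methods gave an earlier version. The authors then counted reads per Ensembl gene with HTSeq and fitted DESeq2 1.6.3 with library date and condition as terms. Use of strand in counting was not given in the sources used here, and nothing stated whether fold changes were shrunk.

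The deposited library signal carries the name of normalized counts, and its structure was examined first. Its 25494 genes had 0 values of 0, and 4 nonzero singular values remained after centring where 9 free libraries allow 8. Libraries of the same number differed, on the log2 scale, by exactly the deposited fold change and a shared constant (largest deviation 1.4e-14). These are fitted means, with the library date term following the replicate numbers, so no test was made on them. A library factor was removed, which differed from one set by the library sum by at most 0.05 on the log2 scale. All log2 fold changes, standard errors, Wald scores, p-values and adjusted p-values are from the comparison tables the authors deposited, with a two-sided threshold of 0.05 (Benjamini-Hochberg) over 11977 or 13205 genes. The lowest means listed were 23.0 and 8.98, and 3 repeated identifiers per table were counted once. Standard errors had a ceiling of 0.235 and fell again at the lowest means (median 0.233 for means of 16 to 32 and 0.221 for 8 to 16), as shrunken changes would give, so the changes of genes near the ceiling may be understated.

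Computed here were 95% intervals, the Wald test over both changes against GFP, levels per kb, list counts and motif counts, with Python 3.11.15, numpy 2.4.6, pandas 2.3.3, scipy 1.17.1 and matplotlib 3.10.9. The scripts for the Wald test, the measure of central spread and the trend removal were tested on simulated data with known changes. Division of scores by that spread was not itself tested there. Positions and 3'UTRs were from GENCODE vM21 on GRCm38, the build of the authors but a later annotation. The members and lists were chosen with earlier results of these data known. Named besides the members were Zfp36, up to 4 genes per pathway list called for TTP-AA vs TTP with a mean of at least 50, by size of change, and the 3 genes most like Tnf, Tnfsf9 and Tnfrsf1a. One gene of the death branch list is not reported here. Other genes were named after their values were seen. Alternatives were division of Wald scores by their central spread, removal of a GC and length trend, centring, a mean filter, other sets of genes for the adjustment and a threshold of 0.01.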

Additional observations from a re-analysis of the deposited data

Results flagged for a closer look

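The effect of TTP-AA differed from that of TTP for 5 members, 17 genes named by rule from the pathway lists and Zfp36, 23 in all. The measure was the direct comparison of both forms (DESeq2 adjusted p under 0.05, as deposited). The naming rule took only list genes already called in this comparison, so that all 17 differed was fixed by the choice. Among the members, the log2 difference was 2.77 for Tnfrsf21, 0.86 for Cd40, 0.62 for Tnfrsf1a, 0.60 for Tnfrsf1b and -0.53 for Tnfrsf12a. Against GFP, Tnfrsf21 and Tnfrsf1a were called in opposite directions in the 2 forms. Among the 17 genes of the pathway lists it was 2.43 for Ripk3, 2.15 for Tnfrsf13b, 1.62 for Tnfsf4, 0.89 for Tnfrsf23, 0.69 for Tnfrsf8, 0.68 for Traf1, 0.65 for Birc3, 0.51 for Ikbke, 0.46 for Adam17, 0.46 for Tank, 0.42 for Traf2, 0.35 for Furin, 0.33 for Tab2, 0.32 for Tbk1, 0.26 for Casp8, -0.70 for Relt and -0.87 for Traf4. For Zfp36, the gene disrupted in these cells, it was 0.65. Since 28.6% of all listed genes were called in this comparison, such a difference was common. Groups of 3 libraries were too small for a search for single libraries apart from the rest.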

How the results depend on the processing

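No paired analysis was possible because the library values are fitted means without scatter, and the replicate numbers are already a term (library date) of the deposited model. Hence a fit without that term, leaving out each library, another pseudocount and a filter against none were not run. Division of Wald scores by their central spread left 247 (TTP vs GFP), 197 (TTP-AA vs GFP) and 266 (TTP-AA vs TTP) genes called, with 1 member, 0 members and 1 member, and 1 member (Tnfrsf21) in the test of any difference among the groups. For TTP-AA vs GFP 1 member then had an unadjusted p under 0.05. The share of calls that were higher moved from 44.6%, 51.0% and 49.1% to 31.6%, 62.9% and 72.6%. A threshold of 0.01 left 616 and 1398 genes in the comparisons with GFP, with 1 member in each. Centring chromosomes left 1 member for TTP vs GFP and reversed Fas there, to -0.11. All other counts stayed within 1.5 times, and every other change kept its sign. Depth was seen only through the sums of fitted means, lowest in TTP replicate 1 and highest in TTP-AA replicate 3. How the results depend on depth was not tested.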
